A study of Mus musculus with 25 samples.

Results

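Molecular chaperones and the chaperonins were examined in RNA-seq data of HSLAM cells (LSK+ CD150+ CD48−), the bone marrow population enriched for hematopoietic stem cells, with and without *Znf143*. The genes were chosen by symbol. All genes of the deposited table whose symbol starts with Dnaja, Dnajb, Dnajc, Hspa, Hspb or Hsp90, or with Cct and a digit, were taken, and *Hspd1*, *Hspe1*, *Hsph1*, *Hsf1* and *Hsf2* were added, which gave 81 of 23116 genes. By class these were 42 J-domain genes (4 Dnaja, 12 Dnajb and 26 Dnajc), 14 HSP70 genes, the HSP110 gene *Hsph1*, 3 HSP90 genes, 8 genes with the Hspb prefix, 9 Cct genes, the 2 genes of the mitochondrial chaperonin and 2 heat shock factors. The choice is wider than cytosolic chaperones. Lists drawn up by role, which may not be complete, name 11 of the genes for proteins of the endoplasmic reticulum (ER) and 8 for mitochondrial proteins. *Hspbp1*, *Hspbap1* and *Hspb11* share the prefix of the small heat shock proteins without belonging to them. *Hspa9-ps1* and *Dnajc19-ps* are pseudogenes by name.

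The libraries came from 3 *Znf143 f/f* x *Rosa26ERT2-Cre-* and 3 *Znf143 f/f* x *Rosa26ERT2-Cre+* mice, here called *Znf143 f/f* and *Znf143 −/−*. All were male C57BL/6 mice of 8 to 12 weeks from 3 pairs of littermates, and both genotypes received intraperitoneal tamoxifen at the middle dosage for 10 days. The floxed allele carries loxP sites around exon 1, and the Cre is expressed from the ubiquitous Rosa26 locus, so that deletion was not limited to blood cells. The labels of the samples name the deleted genotype a CTCF knockout, whereas the study describes *Znf143 −/−*.

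Chaperones bind proteins that are not yet folded or have lost their fold. HSP70 proteins bind and release short hydrophobic stretches in a cycle driven by ATP, J-domain proteins bring clients and start ATP hydrolysis, and HSP110 and other exchange factors release ADP. HSP90 acts later on kinases, receptors and other clients, the CCT complex (also called TRiC) encloses actin and tubulin among other proteins, and HSP60 with HSP10, encoded by *Hspd1* and *Hspe1*, folds proteins in the mitochondrial matrix. The heat shock factor HSF1 induces many of these genes under stress. Blood stem cells make protein slowly and are known to be sensitive to a loss of protein quality.

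The targeted gene was found by its mouse symbol, *Zfp143*. Its rescaled FPKM (fragments per kilobase of gene scaled to the library's size, and divided here by a size factor of each library) was 3.09, 4.45 and 3.68 in *Znf143 f/f* and 0.156, 0.299 and 0.272 in *Znf143 −/−* libraries, or 6.48% of the *Znf143 f/f* mean. The *Znf143 −/−* libraries all lay below the others (log2 fold change -3.50, adjusted p = 0.00100). The table gives 1 value per gene, so that exon 1 was not seen on its own.

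The libraries held 38643255 to 57895793 fragments on genes. Some libraries stood apart from others of the same genotype. *Znf143 f/f* libraries 1 and 3 were nearly alike, as were *Znf143 −/−* libraries 2 and 3. Among 5250 genes with a mean of 100 to 1000 fragments, the median chi-square of the difference was 0.971 and 1.12 in these pairs, 7.70 to 9.48 in the other pairs within a genotype and 0.455 for counting noise alone. This exceeds counting noise, but repeat preparations from 1 mouse would do so too. Whether the libraries of a pair come from separate mice cannot be told from these values. They were kept as the separate samples that the labels give, so that n = 3 counts libraries, and the spread within a genotype rests largely on *Znf143 f/f* library 2 and *Znf143 −/−* library 1. In these 2 libraries 24.1% and 24.3% of fragments lay on genes longer than 5 kb, against 26.5% to 26.7% in the others. Of the HSC markers, *Kit* (13.5 to 22.2), *Slamf1* (5.16 to 9.07) and *Procr* (43.2 to 49.7) were present in all libraries as rescaled FPKM, but 10 of 12 such markers had a log2 fold change below 0 (median -0.34). *Mecom* fell (log2 fold change -0.55), *Ly6a* rose (1.13) and the other 10 did not pass. Markers of granulocytes and monocytes were 10 of 10 higher on average in *Znf143 −/−* libraries and 6 of them passed the threshold, with a summed rescaled FPKM of 201 to 269 in *Znf143 f/f* and 273 to 433 in *Znf143 −/−* libraries. Of the erythroid and megakaryocytic markers 1 of 10 passed upwards and 1 downwards (544 to 611 against 599 to 916), no mast cell or basophil marker passed (2.68 to 4.68 against 3.63 to 12.2), and of 7 lymphoid markers found, 5 had a mean under 0.1 and none of the others passed (8.62 to 12.3 against 8.93 to 9.28). The part of these other cells in the results below was not tested, and in such bulk samples fewer cells of a type and less RNA per cell cannot be told apart.

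Promoter sequences are shown for 5 genes, as windows of 300 bases from 250 before to 50 after the start of a transcript (RefSeq, GRCm38.p6). Of the 81 genes, 65 had at least 1 such window, 84 in all. *Dnajc17* and *Dnajc28* are shown because they are on the study's list of genes with strong ZNF143 association and hold a stretch of the ZNF143 motif, *Hsph1* because it is on this list and holds a heat shock element, *Hspe1* because its window overlaps that of *Hspd1*, and *Hspa5* as the ER chaperone with an ER stress element. Capitals mark the motifs, which were searched on both strands.
Dnajc17, chr2:119208746-119209045, minus strand: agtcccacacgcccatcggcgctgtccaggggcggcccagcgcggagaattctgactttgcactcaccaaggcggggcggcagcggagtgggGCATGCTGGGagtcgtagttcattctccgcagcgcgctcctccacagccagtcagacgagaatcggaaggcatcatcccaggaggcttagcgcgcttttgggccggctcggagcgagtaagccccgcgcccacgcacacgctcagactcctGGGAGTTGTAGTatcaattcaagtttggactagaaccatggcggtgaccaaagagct
Dnajc28, chr16:91618950-91619249, minus strand: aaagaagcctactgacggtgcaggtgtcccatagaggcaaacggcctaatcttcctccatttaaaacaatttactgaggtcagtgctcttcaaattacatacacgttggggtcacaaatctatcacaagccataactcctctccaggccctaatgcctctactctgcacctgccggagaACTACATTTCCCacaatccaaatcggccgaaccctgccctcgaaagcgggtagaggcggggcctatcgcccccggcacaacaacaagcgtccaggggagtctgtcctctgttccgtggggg
Hsph1, chr5:149636266-149636565, minus strand: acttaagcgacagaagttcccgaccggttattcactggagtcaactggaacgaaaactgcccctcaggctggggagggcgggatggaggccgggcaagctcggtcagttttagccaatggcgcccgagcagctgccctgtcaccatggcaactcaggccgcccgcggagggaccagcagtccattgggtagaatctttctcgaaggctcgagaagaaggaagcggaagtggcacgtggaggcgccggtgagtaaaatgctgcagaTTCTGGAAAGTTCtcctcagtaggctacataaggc
Hspe1, chr1:55087898-55088197, plus strand: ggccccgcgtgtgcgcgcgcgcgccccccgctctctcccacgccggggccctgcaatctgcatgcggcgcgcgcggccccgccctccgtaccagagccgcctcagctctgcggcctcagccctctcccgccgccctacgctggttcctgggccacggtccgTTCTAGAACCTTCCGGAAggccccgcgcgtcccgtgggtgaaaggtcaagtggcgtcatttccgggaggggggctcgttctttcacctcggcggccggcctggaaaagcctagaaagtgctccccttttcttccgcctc
Hspa5, chr2:34771840-34772139, plus strand: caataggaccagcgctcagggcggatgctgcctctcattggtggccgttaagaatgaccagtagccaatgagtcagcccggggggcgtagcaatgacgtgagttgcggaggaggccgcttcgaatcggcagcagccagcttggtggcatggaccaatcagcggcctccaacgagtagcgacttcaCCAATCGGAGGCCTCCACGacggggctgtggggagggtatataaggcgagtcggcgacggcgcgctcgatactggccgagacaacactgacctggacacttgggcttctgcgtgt

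A first stretch of the ZNF143 motif was searched as ACTACA and TCCC with any 2 bases between them. It was found in 3 of the 84 windows and in 1.81% of all 32851 promoter windows. The 3 windows belong to 3 of the 65 genes, *Dnajb13*, *Dnajc17* and *Dnajc28*. The second stretch, CCCA and ATGC with any 2 bases between them, can overlap the first by CCC. It was found in 1 of the 84 windows, that of *Dnajc17*, and in 1.88% of all promoter windows. The heat shock element, to which HSF1 binds, was searched as GAA, TTC and GAA with any 2 bases between each. It was found in 6 of the 84 windows, from the 4 genes *Dnajb6*, *Hspd1*, *Hspe1* and *Hsph1*, and in 0.603% of all promoter windows. In *Hspd1* and *Hspe1*, which are transcribed away from each other, this is the same stretch of DNA, matched on both strands with an overlap. The ER stress element was searched as CCAAT and CCACG with any 9 bases between them. It was found in 3 of the 84 windows, from *Dnajc3*, *Hsp90b1* and *Hspa5*, and in 0.119% of all promoter windows. No window was found for 16 genes, among them *Dnajc12*, *Dnajc18*, *Dnajc30*, *Hspa8* and *Hsf1*. A match only says that these letters are present.

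Chaperone genes spanned a wide range of levels. The minimum mean rescaled FPKM of 0.1 for a test was reached by 77 genes. Among these, the mean was 100 or more in 13 genes, 10 to 100 in 28, 1 to 10 in 30 and below 1 in 6. *Hsp90ab1*, *Hsp90aa1*, *Cct5*, *Hspe1* and *Hspa8* had the highest levels. The genes below the minimum were *Cct8l1*, *Hspa1l*, *Hspa12a* and *Hspa9-ps1*.

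Most chaperone genes did not pass the test between genotypes. In *Znf143 −/−* libraries, 7 of the 77 tested genes fell, *Dnajc12*, *Dnajc18*, *Dnajb2*, *Hspb8*, *Hsph1*, *Dnajc30* and *Hspa8*, and 1 rose, *Dnajb1* (limma, adjusted p under 0.05 over all 19293 tested genes). Of all tested genes 5.98% passed, of which 2.99% fell and 3.0% rose. The median log2 fold change was -0.02 over the 77 genes and 0.01 over all genes. Between the genotypes, 32 of the 77 did not overlap, 23 lower and 9 higher in *Znf143 −/−*, where 15.3% and 15.4% of all tested genes did so in each direction. When the nearly alike libraries were averaged, so that 2 stood against 2, no chaperone gene passed (limma), against 0.233% of all tested genes (0.145% lower and 0.0881% higher). *Dnajb2*, *Dnajc12*, *Dnajc18* and *Hspb8* then had adjusted p of 0.0635, 0.0670, 0.0777 and 0.0971, and 13 of the 77 genes had an unadjusted p under 0.05, 10 of them lower and 3 higher, against 9.87% of all tested genes (4.71% lower and 5.16% higher).

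**Figure D1:**
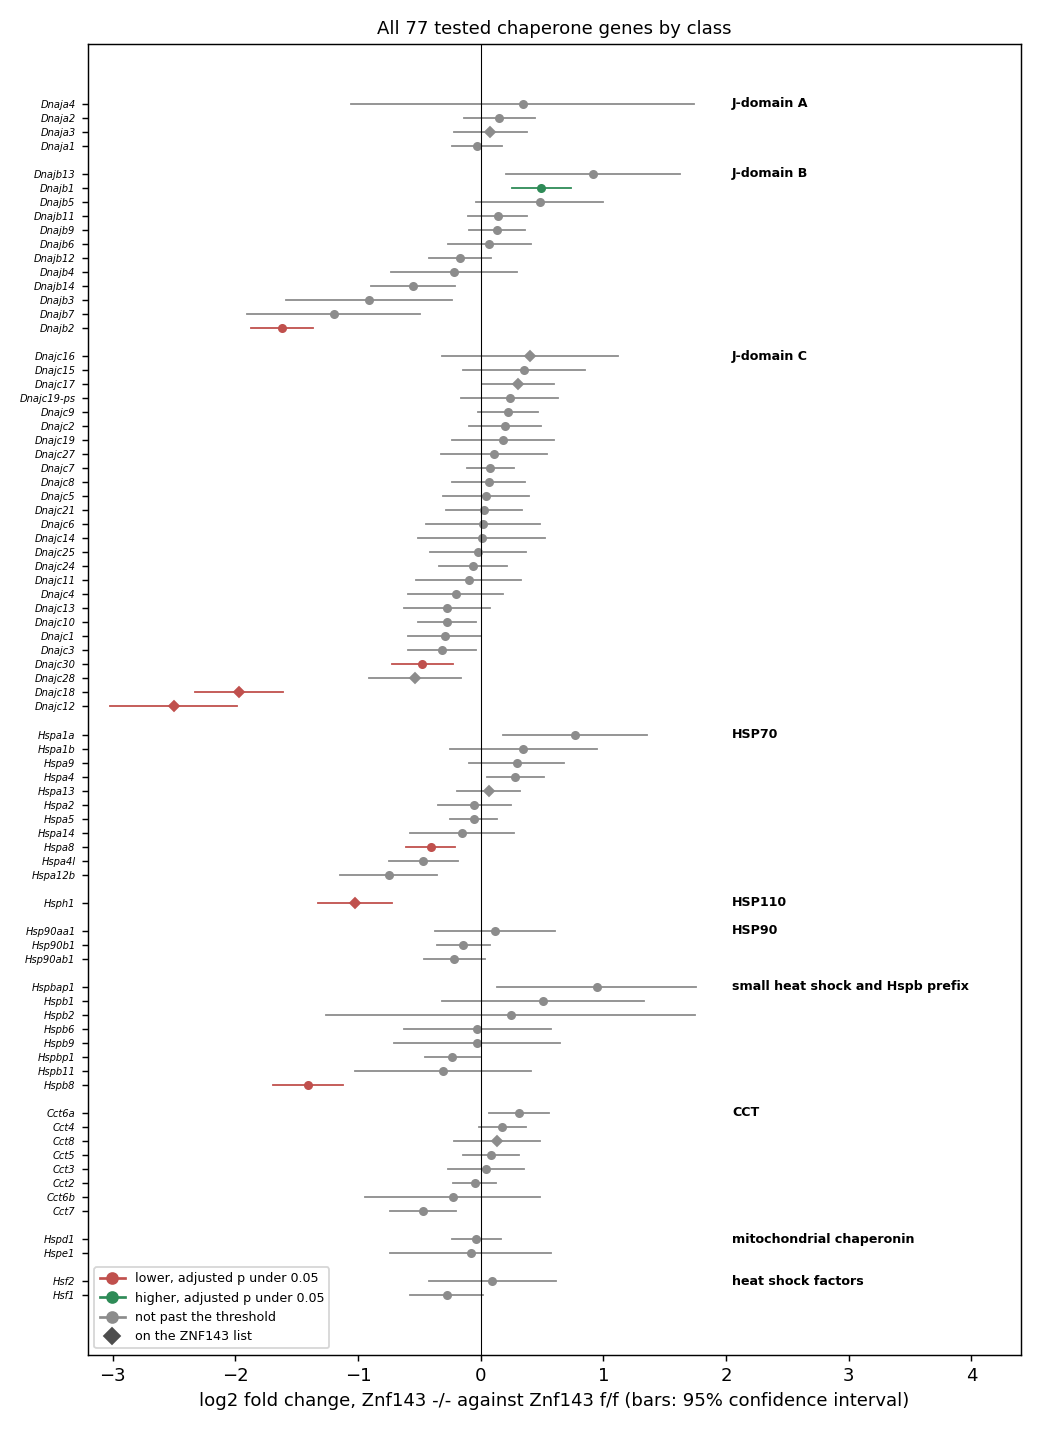
Log2 fold change (x axis, *Znf143 −/−* against *Znf143 f/f*) of the 77 tested chaperone genes, grouped by class, with 95% confidence intervals from limma as bars. Red marks the 7 genes that fell, green the 1 that rose, and diamonds genes on the ZNF143 list. Most intervals include 0, and the largest differences are those of *Dnajc12* (-2.50), *Dnajc18* (-1.97) and *Dnajb2* (-1.62).

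The J-domain genes contained the largest falls. All 42 were tested, of which 4 fell, 1 rose and 37 did not pass. Their median log2 fold change was 0.02. *Dnajc12* encodes a cochaperone of HSP70 that is known to act on the hydroxylases of aromatic amino acids. Its rescaled FPKM was 2.66, 4.26 and 2.94 in *Znf143 f/f* and 0.557, 0.429 and 0.477 in *Znf143 −/−* libraries, so that the lowest *Znf143 f/f* value was still well above the highest *Znf143 −/−* value. The mean fell from 3.29 ± 0.852 to 0.488 ± 0.0644 (SD, n = 3 each), or to 14.8%. The log2 fold change was -2.50 (SE 0.215, 95% confidence interval -3.02 to -1.99, adjusted p = 0.00230). These values rest on 456 to 934 fragments per *Znf143 f/f* and 94 to 124 per *Znf143 −/−* library. The gene (ENSMUSG00000036764.12) lies on chromosome 10 of GRCm38 from 63382443 to 63410576.

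*Dnajc18* encodes a J-domain protein of the ER membrane. Its rescaled FPKM was 2.84, 3.08 and 2.76 in *Znf143 f/f* and 0.767, 0.609 and 0.623 in *Znf143 −/−* libraries, which do not overlap. The mean fell to 23.1% of *Znf143 f/f* (log2 fold change -1.97, SE 0.151, adjusted p = 0.00157), from 562 to 779 and 154 to 187 fragments. *Dnajb2* (ENSMUSG00000026203.16, chromosome 1, 75236406 to 75245692) encodes an HSP70 cochaperone that binds ubiquitin and passes clients to the proteasome. It had a rescaled FPKM of 6.60, 7.50 and 6.68 in *Znf143 f/f* and 2.24, 2.14 and 2.16 in *Znf143 −/−* libraries. Here the spread was smallest beside the size of the fall, to 31.5% of *Znf143 f/f* (log2 fold change -1.62, SE 0.104, 95% confidence interval -1.87 to -1.37, adjusted p = 0.000824). Without any 1 library, the adjusted p of *Dnajc12*, *Dnajc18* and *Dnajb2* was at most 0.0208.

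*Dnajc30*, a mitochondrial J-domain protein, had a rescaled FPKM of 15.1, 18.1 and 16.3 in *Znf143 f/f* and 10.8, 12.6 and 12 in *Znf143 −/−* libraries. Its fall was small (log2 fold change -0.48, SE 0.104, adjusted p = 0.0486) and did not pass without any 1 of the 6 libraries (adjusted p 0.0529 to 0.187) or with FPKM as deposited (adjusted p = 0.296). *Dnajc30* did not pass either with *Znf143 −/−* library 3 scaled to its own total (adjusted p = 0.0836). Of its 1661 exonic bases, 26.2% overlap exons of *Bud23* on the other strand, which these libraries without strand cannot tell apart.

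*Dnajb1* was the only chaperone gene that rose. It encodes the major stress-inducible HSP40, the J-domain partner of HSP70 in the cytosol (ENSMUSG00000005483.10, chromosome 8, 83608193 to 83612653). As rescaled FPKM it was 89.8, 91.2 and 88.6 in *Znf143 f/f* and 144, 118 and 119 in *Znf143 −/−* libraries. The mean rose from 89.9 ± 1.27 to 127 ± 14.7 (SD, n = 3 each). The log2 fold change was 0.50 (SE 0.102, 95% confidence interval 0.25 to 0.74, adjusted p = 0.0417). The adjusted p was 0.147 without *Znf143 f/f* library 1, 0.170 without *Znf143 f/f* library 3, 0.0974 without *Znf143 −/−* library 2 and 0.139 without *Znf143 −/−* library 3.

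The other J-domain genes did not pass. The abundant members of each type, *Dnaja2* (rescaled FPKM 66.8 to 78.3 in *Znf143 f/f* and 69.7 to 87.9 in *Znf143 −/−*), *Dnaja1* (33.1 to 38.7 and 34.5 to 35.5), *Dnajb11* of the ER lumen (27.6 to 31.2 and 28.7 to 34.6), *Dnajc8* (92.0 to 109 and 93.2 to 121) and *Dnajc9* (81.5 to 95.1 and 94.0 to 110), overlapped between the genotypes. Named after their values were seen, *Dnajb7*, *Dnajb3* and *Dnajb14* had log2 fold changes of -1.20, -0.91 and -0.55 (adjusted p 0.0646, 0.114 and 0.0752), and *Dnajb13* one of 0.91 (adjusted p = 0.123). *Dnajb7* lay between 0.0824 and 0.513 in all libraries, close to the minimum level. *Dnaja4*, named for its spread, had the widest interval of its type (-1.06 to 1.74). It was 0.256 in *Znf143 f/f* library 2 and 0.909 to 1.51 in the others, and 44.1% of its exonic bases overlap *Wdr61*.

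**Figure D2:**
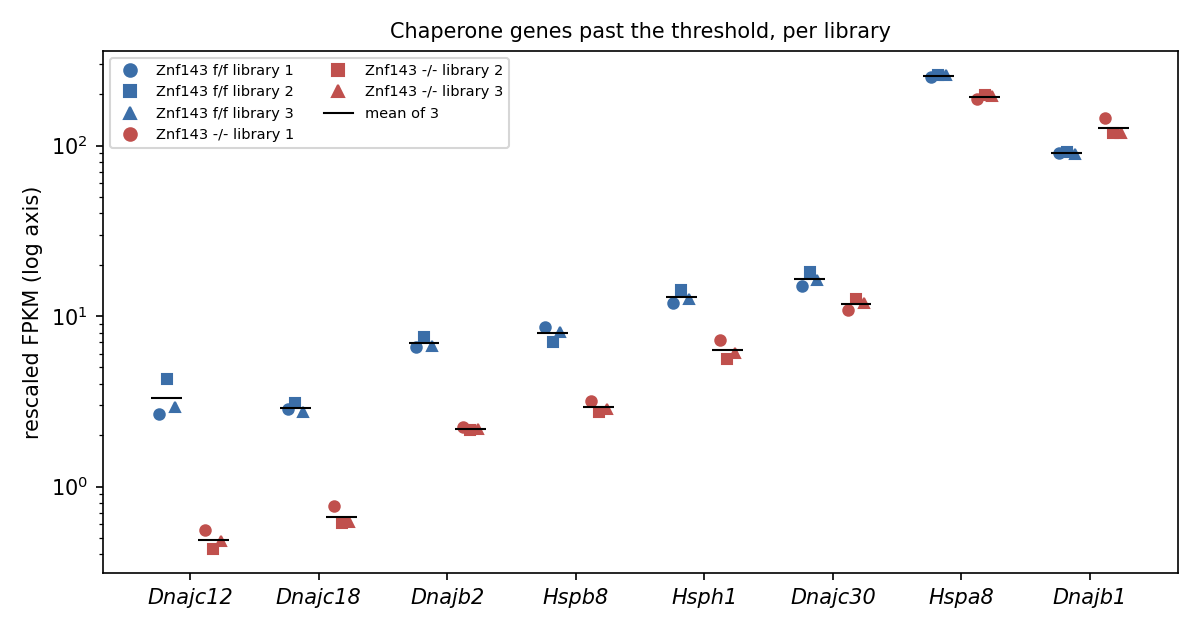
Rescaled FPKM (y axis, log scale) of the 8 chaperone genes past the threshold in each of the 6 libraries, with the symbol giving the library number and lines the mean of 3. *Dnajc12*, *Dnajc18*, *Dnajb2*, *Hspb8* and *Hsph1* are well apart, whereas *Dnajc30*, *Hspa8* and *Dnajb1* differ by less than 1.5-fold.

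Among the 11 tested HSP70 genes *Hspa8* fell and the others did not pass. *Hspa8* encodes HSC70, the form that is abundant without stress, which folds new proteins, uncoats clathrin vesicles and carries clients to the lysosome (ENSMUSG00000015656.17, chromosome 9, 40800984 to 40810087). Its rescaled FPKM was 254, 260 and 258 in *Znf143 f/f* and 187, 198 and 196 in *Znf143 −/−* libraries. These values hardly varied within a genotype and did not overlap. The mean fell from 257 ± 3.18 to 194 ± 5.75 (SD, n = 3 each), or to 75.4%. The log2 fold change was -0.41 (SE 0.0826, 95% confidence interval -0.61 to -0.21, adjusted p = 0.0394). With FPKM as deposited the log2 fold change was -0.29 (adjusted p = 0.336). With *Znf143 −/−* library 3 scaled to its own total it was -0.38 and did not pass either (adjusted p = 0.0730). The adjusted p was 0.149 without *Znf143 f/f* library 1, 0.178 without *Znf143 f/f* library 3, 0.136 without *Znf143 −/−* library 2 and 0.193 without *Znf143 −/−* library 3. Of its distinct stretches of 76 bases, a read's length, 32.8% occur in annotated transcripts of 14 other genes, *Gm15459* and *Gm8355* among them, so that some reads may be divided between copies.

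*Hspa1a* and *Hspa1b* encode the heat-inducible HSP70. The rescaled FPKM of *Hspa1a* was 12.7, 21.1 and 13.4 in *Znf143 f/f* and 34.3, 22.0 and 23.6 in *Znf143 −/−* libraries. The log2 fold change was 0.77 (95% confidence interval 0.18 to 1.35, adjusted p = 0.122). The highest *Znf143 f/f* and the lowest *Znf143 −/−* value are close. Without *Znf143 f/f* library 2 the adjusted p was 0.0408. *Hspa1b* was 26.1, 36.5 and 24.9 against 52.7, 30.5 and 30.5, with overlap (log2 fold change 0.35, adjusted p = 0.450). The 2 genes are near-identical copies on chromosome 17, and 61.5% of the 76-base stretches of *Hspa1a* and 55.6% of those of *Hspa1b* occur in other annotated genes, chiefly each other, so that their separate values are uncertain.

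The other HSP70 genes did not pass. *Hspa5*, which encodes BiP, the HSP70 of the ER, was 173, 174 and 180 in *Znf143 f/f* and 163, 171 and 173 in *Znf143 −/−* libraries (log2 fold change -0.06, 95% confidence interval -0.25 to 0.13, adjusted p = 0.711). *Hspa9*, the mitochondrial HSP70, also named after its values were seen, reached from 65.0 to 75.7 and from 68.7 to 101 (adjusted p = 0.324, and 0.0365 without *Znf143 −/−* library 1). Of others named in the same way, *Hspa12b* was 5.83, 5.85 and 5.24 against 2.58, 3.71 and 3.77 (log2 fold change -0.75, adjusted p = 0.0506, and 0.0253 without *Znf143 −/−* library 1), and *Hspa4l* 4.15, 4.36 and 3.94 against 2.67, 3.22 and 3.05 (log2 fold change -0.47, adjusted p = 0.0678). *Hspa4*, a close relative of *Hspa4l* in the HSP110 family, had a log2 fold change of the other sign, 0.28 (adjusted p = 0.140, and 0.0399 without *Znf143 f/f* library 2).

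*Hsph1* encodes HSP110 (HSP105), an exchange factor of HSP70 that also holds and helps to dissolve aggregates (ENSMUSG00000029657.15, chromosome 5, 149614287 to 149636376). The libraries of *Znf143 f/f* had a rescaled FPKM of 12, 14.2 and 12.6 and those of *Znf143 −/−* one of 7.27, 5.64 and 6.09. The mean fell from 12.9 ± 1.12 to 6.33 ± 0.846 (SD, n = 3 each), or to 48.9%. The log2 fold change was -1.02 (SE 0.125, 95% confidence interval -1.32 to -0.73, adjusted p = 0.00813), from 2003 to 5053 fragments per library. The adjusted p was 0.0505 without *Znf143 f/f* library 3 and 0.0571 without *Znf143 −/−* library 3. In its promoter shown above, the heat shock element starts at base 16 of the transcript, and in a second window of the gene, not shown, at base 37.

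None of the 3 HSP90 genes passed. *Hsp90ab1*, the cytosolic form that is abundant without stress and the chaperone mRNA with the highest level per length, was 697, 698 and 688 in *Znf143 f/f* and 611, 601 and 583 in *Znf143 −/−* libraries. These values did not overlap, with a log2 fold change of -0.21 (95% confidence interval -0.46 to 0.03, adjusted p = 0.264). *Hsp90aa1*, the inducible form, was 316, 524 and 345 against 466, 388 and 402 (log2 fold change 0.12, 95% confidence interval -0.38 to 0.61, adjusted p = 0.781). Its spread came from *Znf143 f/f* library 2 and *Znf143 −/−* library 1, which were highest in their genotype. *Hsp90b1*, the ER form, was 69.1, 70.3 and 73.7 against 58.3, 67.2 and 68.2 (adjusted p = 0.398).

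Of the 8 genes with the Hspb prefix, only *Hspb8* passed. It encodes a small heat shock protein that works with BAG3 to send misfolded proteins to autophagy (ENSMUSG00000041548.4, chromosome 5, 116408491 to 116422864). As rescaled FPKM it was 8.68, 7.08 and 8.10 in *Znf143 f/f* and 3.20, 2.75 and 2.86 in *Znf143 −/−* libraries. The mean fell from 7.95 ± 0.808 to 2.93 ± 0.233 (SD, n = 3 each), or to 36.9%. The log2 fold change was -1.41 (SE 0.12, 95% confidence interval -1.69 to -1.12, adjusted p = 0.00227). It kept its call without any 1 library (adjusted p at most 0.0248). *Hspb1*, the classical small heat shock protein and outside the rule for named genes, was 4.03, 5.76 and 3.77 against 10.7, 4.22 and 5.64, with 1 high *Znf143 −/−* library (log2 fold change 0.51, adjusted p = 0.423). The most abundant genes of this prefix were *Hspbp1*, an exchange factor of HSP70 (149, 168 and 148 against 139, 124 and 133, log2 fold change -0.23, adjusted p = 0.194), and *Hspb11*, a subunit of intraflagellar transport (13.5, 24.2 and 15.5 against 20.3, 10.6 and 12.3, adjusted p = 0.584).

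None of the 8 tested Cct genes passed. *Cct5* was 274, 266 and 278 in *Znf143 f/f* and 268, 299 and 301 in *Znf143 −/−* libraries (log2 fold change 0.09, 95% confidence interval -0.14 to 0.31, adjusted p = 0.638). *Cct8* was 187, 163 and 189 against 160, 223 and 213 (log2 fold change 0.13, 95% confidence interval -0.22 to 0.49, adjusted p = 0.634). Values of the subunits lay on both sides of 0. *Cct6a* had a log2 fold change of 0.31 (122 to 134 against 141 to 167, adjusted p = 0.125) and *Cct7* one of -0.47 (85.6 to 95.6 against 57.4 to 72.9, adjusted p = 0.0612), both without overlap and named after their values were seen. Without *Znf143 −/−* library 1 the adjusted p was 0.0369 for *Cct6a* and 0.0453 for *Cct7*. The other abundant subunits *Cct2*, *Cct3* and *Cct4* had log2 fold changes of -0.05, 0.04 and 0.18. Over the 7 Cct genes other than the low *Cct6b*, the 95% confidence intervals reached from -0.74 to 0.56, so that none included a change of 2-fold. The mitochondrial chaperonin genes did not pass either. *Hspd1* was 125, 126 and 131 against 116, 128 and 129 (adjusted p = 0.831). *Hspe1* was 220, 369 and 253 against 366, 205 and 230 (log2 fold change -0.08, 95% confidence interval -0.74 to 0.57, adjusted p = 0.889), with 1 high library in each genotype.

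The heat shock factors did not pass. *Hsf1* was 12.8, 11.2 and 11.4 in *Znf143 f/f* and 8.27, 10.7 and 10.3 in *Znf143 −/−* libraries (log2 fold change -0.28, 95% confidence interval -0.57 to 0.02, adjusted p = 0.234). *Hsf2* lay under 1 in all libraries (0.563, 0.899 and 0.628 against 0.807, 0.724 and 0.686, adjusted p = 0.831). The list of 15 chaperone genes that respond to heat shock includes *Hspa8* and *Hsp90ab1*, which are abundant without it too. Of these 15, 3 fell (*Hsph1*, *Hspb8* and *Hspa8*), 1 rose (*Dnajb1*) and 11 did not pass, with a median log2 fold change of -0.04 against 0.01 over all genes. Without *Hspa8* and *Hsp90ab1*, 2 of 13 fell and 1 rose. Of 15 immediate early genes such as *Fos*, *Jun* and *Egr1*, which respond to cell handling, none passed, and their summed rescaled FPKM was 2769 to 5003 in *Znf143 f/f* and 2918 to 4024 in *Znf143 −/−* libraries. Of the 11 chaperone genes listed for the ER, 1 fell (*Dnajc18*), and 7 lay lower in *Znf143 −/−* libraries without overlap, where 15.3% of all tested genes did. Their median log2 fold change was -0.17 and the log2 fold changes of the other 6 reached from -0.55 (*Dnajb14*) to -0.06 (*Hspa5*). In *Hspa5* the lowest *Znf143 f/f* value (173.44) lay just above the highest *Znf143 −/−* value (173.28). Of the 8 genes listed as mitochondrial 1 fell (*Dnajc30*), with a median of 0.02.

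**Figure D3:**
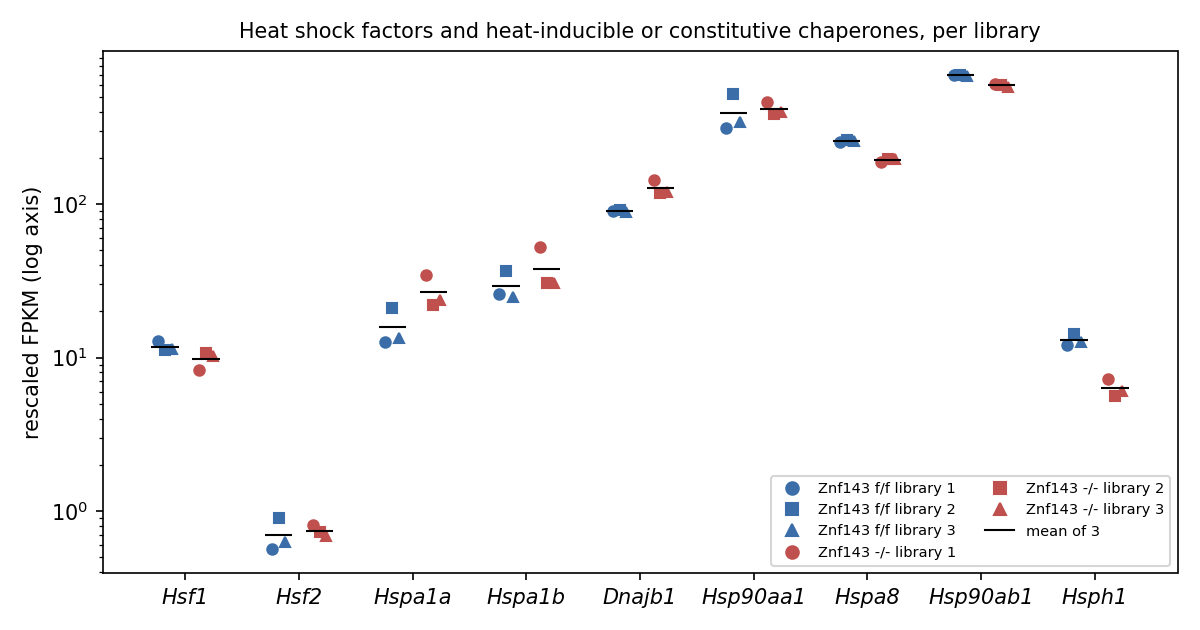
Rescaled FPKM (y axis, log scale) of the heat shock factors and of heat-inducible and constitutive chaperone genes in each library, with symbols for the library number and lines for the mean of 3. *Dnajb1* lies higher and *Hspa8* and *Hsph1* lie lower in *Znf143 −/−*, while *Hsp90aa1* and *Hspa1b* overlap.

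The study lists 1467 genes with strong ZNF143 association, chosen from gene expression and ChIP-seq, so that the list is not independent evidence of a direction in these libraries. It holds 9 of the 81 chaperone genes. *Dnajc12*, *Dnajc18* and *Hsph1* fell, and 6 did not pass. Of the 1350 tested genes on the list, 13.7% fell and 2.15% rose. *Dnajc28* was 1.84, 1.43 and 1.62 in *Znf143 f/f* and 1.04, 1.18 and 1.05 in *Znf143 −/−* libraries (log2 fold change -0.53, adjusted p = 0.101, and 0.0480 without *Znf143 f/f* library 2). *Dnajc17*, a J-domain protein linked to splicing, was 6.39, 8.52 and 7.31 against 9.53, 8.93 and 8.86 (log2 fold change 0.30, adjusted p = 0.194). Promoters were searched for 6 of the 9 list genes, not for *Dnajc12*, *Dnajc18* and *Hspa13*. Of these 6, *Dnajc28* and *Dnajc17* hold a stretch of the ZNF143 motif. *Dnaja3*, a mitochondrial J-domain protein, and *Hspa13*, an HSP70-like protein of microsomes, had log2 fold changes of 0.08 and 0.06 (adjusted p 0.760 and 0.764), and *Dnajc16* one of 0.40 (adjusted p = 0.467). *Cct8* is described above. *Dnajb2*, *Hspb8*, *Dnajc30* and *Hspa8*, which also fell, are not on the list.

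Other genes of protein folding were read from 4 lists with 71 genes, all tested, of which 2 fell and 1 rose, no larger a share than over all tested genes (2.99% and 3.0%). Of 31 cochaperones of HSP70 and HSP90, *Fkbp4*, the immunophilin that joins steroid receptors to HSP90, fell. Its rescaled FPKM was 131, 136 and 128 in *Znf143 f/f* and 69.8, 82.0 and 80.4 in *Znf143 −/−* libraries (log2 fold change -0.77, SE 0.0926, adjusted p = 0.00773). The adjusted p was 0.0505 without *Znf143 f/f* library 3 and 0.0520 without *Znf143 −/−* library 3. The most abundant of this list, *Bag1* and *Nudc*, had log2 fold changes of 0.16 and -0.05 (adjusted p 0.556 and 0.807).

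Of 11 mitochondrial chaperones and proteases, *Clpb*, a disaggregase of the intermembrane space, fell to 22.9% of *Znf143 f/f*. Its rescaled FPKM was 9.30, 8.43 and 8.67 in *Znf143 f/f* and 2.07, 1.93 and 2.04 in *Znf143 −/−* libraries (log2 fold change -2.07, SE 0.0989, 95% confidence interval -2.31 to -1.84, adjusted p = 0.000338). It passed also with the nearly alike libraries averaged (adjusted p = 0.0322), and its promoter holds the first stretch of the ZNF143 motif. For *Fkbp4* and *Sil1*, the other related genes past the threshold, no stretch of this motif was found. Whether these genes have a promoter window was not recorded. *Clpb* and *Fkbp4* are on the ZNF143 list. *Hscb* and *Clpp*, the most abundant of this list, had log2 fold changes of 0.30 each (adjusted p 0.508 and 0.123).

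Of 17 genes of ER chaperones and the unfolded protein response, *Sil1*, the exchange factor of BiP, rose. It was 48.3, 63.3 and 48.3 in *Znf143 f/f* and 84.7, 94.6 and 95.7 in *Znf143 −/−* libraries (log2 fold change 0.79, SE 0.129, adjusted p = 0.0205). The adjusted p lay between 0.0830 and 0.107 without any 1 of the near-alike libraries. *Calr* and *Pdia3* had log2 fold changes of 0.32 and 0.20 (adjusted p 0.117 and 0.347). None of the 12 genes listed as partners of CCT passed, with *Pfdn1* at 0.06 and *Pfdn5* at -0.22 (adjusted p 0.882 and 0.653). This list holds *Tcp1*, a CCT subunit that the choice by symbol left out of the Cct genes.

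Summed over all 81 genes, the level of chaperone mRNA differed by less than the spread between libraries. The rescaled FPKM of all 81 genes summed to 4166 ± 216 in *Znf143 f/f* and 4115 ± 72.8 in *Znf143 −/−* (SD, n = 3 each). The HSP70 genes summed to 643 ± 9.21 and 613 ± 13.8, the HSP90 genes to 1160 ± 115 and 1082 ± 46.8 and the Dnajb genes to 176 ± 8.86 and 210 ± 12.6, with *Dnajb1* the most abundant. The sum of the Cct genes was 908 to 980 in *Znf143 f/f* and 901 to 1053 in *Znf143 −/−* libraries. The median log2 fold change of a class, relative to all genes, lay between -0.15 (HSP90) and 0.11 (Dnaja) in every class but *Hsph1*, which is a class of 1. For 69 genes that did not pass, the 95% confidence interval stayed within a change of 2-fold in 58, and it reached beyond 2-fold in the other 11.

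The difference of *Znf143 f/f* library 2 and *Znf143 −/−* library 1 from the others ran through all genes, with shares near those of the chaperone genes. In 16 of the 77 chaperone genes (20.8%) both *Znf143 f/f* library 2 and *Znf143 −/−* library 1 lay above all 4 other libraries (15.3% of all tested genes), *Hspe1*, *Hsp90aa1* and *Hspb1* among them. In 13 (16.9%) both lay below the others (15.6% of all tested genes), *Cct8*, *Hspa9* and *Dnaja2* among them. The mitochondrial chaperonin genes had a summed rescaled FPKM of 495 and 482 in these libraries and 333 to 385 in the other 4.

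**Figure D4:**
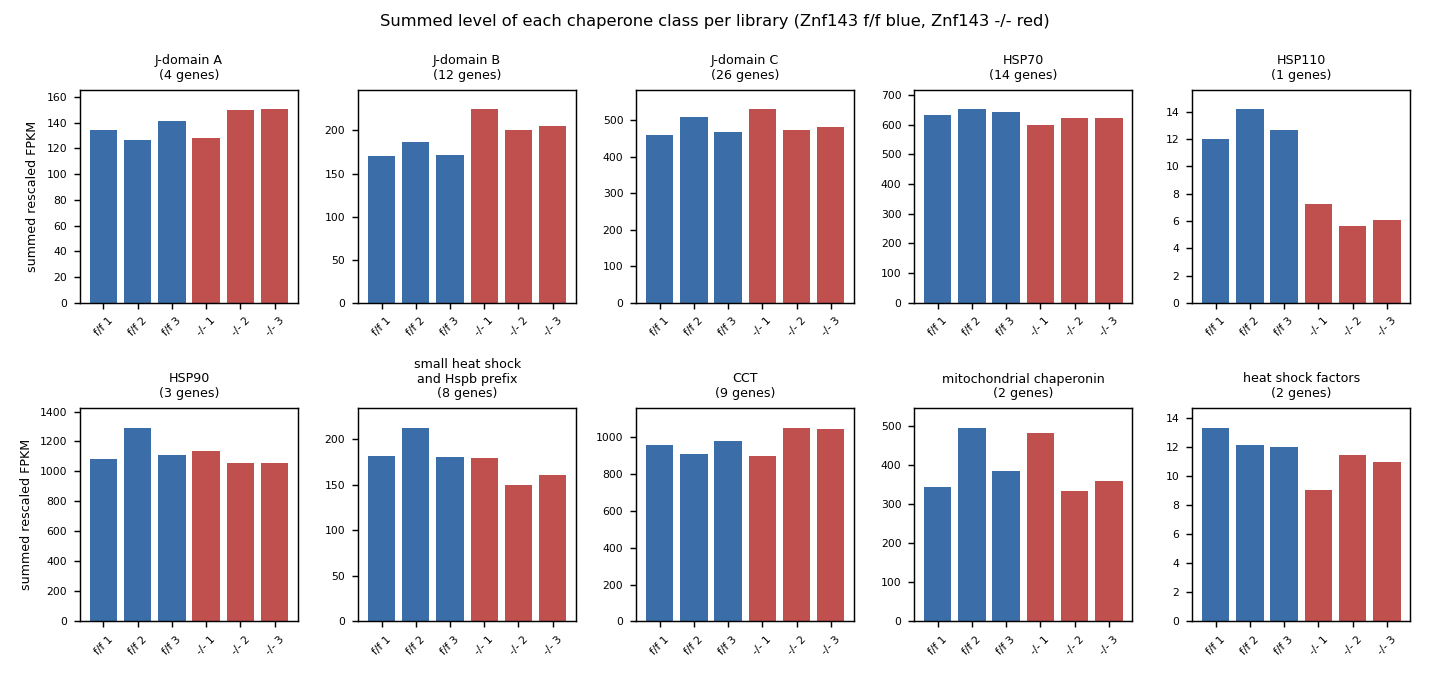
Summed rescaled FPKM (y axis) of all genes of each chaperone class in the 6 libraries (x axis), with *Znf143 f/f* in blue and *Znf143 −/−* in red. The sums of HSP110, HSP70, the Hspb prefix and the heat shock factors are lower in all *Znf143 −/−* libraries. For the Hspb prefix the nearest values are close (181 in *Znf143 f/f* library 3 and 180 in *Znf143 −/−* library 1). HSP110 is *Hsph1* alone here, since *Hspa4* and *Hspa4l* of that family were counted under HSP70 by symbol. The Dnajb sum is higher in all *Znf143 −/−* libraries. The mitochondrial chaperonin is highest in *Znf143 f/f* library 2 and *Znf143 −/−* library 1.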

How the data were processed

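The RNA-seq libraries of HSLAM cells were analysed, 3 per genotype. ChIP-seq and HiC samples were not analysed here. The authors trimmed reads, aligned them to GRCm38 with STAR, counted with FeatureCounts and deposited FPKM per library for 23116 genes. Columns of the authors' own DESeq2 comparison (mean counts, log2 fold changes, errors, statistics and p-values) were not used. Libraries were made with SMART-Seq v4 and Nextera XT, which do not mark strand.

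FPKM times gene length gave whole fragments (within 0.05) for 99.986% of values. In *Znf143 −/−* library 3, FPKM had been divided by the total of library 2 (48378188, while 57895793 fragments lay on genes). All FPKM were therefore divided by size factors (median of ratios, 0.906 to 1.20). As deposited, the median log2 fold change of all genes was 0.11, and 0.01 after rescaling. Genes with a mean of at least 0.1 were tested, two-sided, on log2(rescaled FPKM + 0.1), a scale that understates changes of low genes, with limma 3.58.1 (variance trend, R 4.3.3) and Benjamini-Hochberg adjustment over 19293 genes. An exact permutation test of 3 against 3 libraries cannot go below p = 0.1. No sample was dropped or imputed.

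Named genes are members past the threshold, the 2 most abundant of each class and related list, members on the ZNF143 list, *Hsf1*, *Hsf2*, *Hspa1a* and *Hspa1b*. Others, such as *Hspa9*, *Hspa4*, *Hsp90b1*, *Hspb1*, *Dnaja4*, *Cct2*, *Cct3* and *Cct4*, were named after their values were seen. Members, lists and motifs were chosen with earlier results of these data known. Positions and exons are from GENCODE vM21, which names all members reported by position.

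Alternatives were FPKM as deposited, *Znf143 −/−* library 3 scaled to its own total, pseudocounts of 0.01 and 1, no filter, a mean of at least 1, voom on recovered fragments, no variance trend, the replicate number as a block and each library left out. Averaging the nearly alike libraries, and leaving out *Znf143 f/f* library 2 with *Znf143 −/−* library 1, were added after the data were seen.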

Additional observations from a re-analysis of the deposited data

How the results depend on the processing

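Of 1507 values of single genes under 17 alternatives, 1402 stayed on the same side of the threshold. Of the rest, 47 were no longer past it, 57 newly passed and 1, that of *Hspb6*, reversed. A change of sign was counted as reversed only for a gene that passed in the main fit or in the alternative. The 1402 thus include changes of sign in genes that passed in neither, such as *Dnaja4* (log2 fold change -0.38 to 0.71 over the alternatives). *Hspb6*, at -0.034 relative to all genes on the log2 scale, reached 0.39 without *Znf143 f/f* library 2 and *Znf143 −/−* library 1 and ranged from -0.18 to 0.21 with 1 library left out. The count of chaperone genes that rose (1) was 0 without the variance trend, with the replicate number as a block and with nearly alike libraries averaged, and 0 to 4 with 1 library left out. The count that fell (7) was 11 with voom, 4 with the block, 0 with nearly alike libraries averaged and 4 to 9 with 1 library left out. The 3 related genes became 5 with voom, 1 with the block, 1 with nearly alike libraries averaged and 1 to 6 with 1 library left out. Without *Znf143 f/f* library 2 and *Znf143 −/−* library 1 together, the spread is that of nearly alike libraries, and 21 chaperone genes rose, 22 fell and 33 related genes passed, as did 42.4% of all tested genes (8115). The cause of the other changes was not tested.

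Class medians relative to all genes moved by more than the spread between replicates in these cases. They did so without *Znf143 f/f* library 2 and *Znf143 −/−* library 1 (Dnajc -0.0591, HSP70 0.0601, HSP90 -0.0729, Cct 0.16) and, for Dnajc, with nearly alike libraries averaged (-0.0318). They also did with 1 library left out, for Dnajb and HSP70 without *Znf143 f/f* library 2 (0.0943 and 0.0217), for Dnajc, HSP70 and HSP90 without *Znf143 −/−* library 1 (-0.0561, 0.0311 and -0.0690) and for Dnajc without *Znf143 −/−* library 2 (-0.0319). The signs of Dnajb, Dnajc and HSP70 thereby turned. With 1 library left out the class medians ranged from -0.0825 to 0.0943 (Dnajb), -0.0561 to 0.0328 (Dnajc), -0.0733 to 0.0311 (HSP70), -0.19 to -0.0690 (HSP90) and 0.00060 to 0.14 (Cct). For Dnaja the range was -0.0053 to 0.21, and for the Hspb prefix -0.22 to 0.0705. Over all genes 1154 passed, 833 as deposited, 1402 with voom, 191 with the block, 45 with nearly alike libraries averaged and 223 to 2286 with 1 library left out. Of the genes that passed, 50.1% were higher after rescaling and 63.5% as deposited. Same-numbered libraries deviated with correlations of -0.17, -0.14 and 0.09 over 12546 genes and those of other numbers with -0.12 to 0.17. The number was not taken as a pairing, and which libraries are littermates is not given in the sources used here. *Dnajb1*, *Hspa8* and *Dnajc30* did not pass without the variance trend. The block kept *Dnajb2*, *Dnajc12*, *Dnajc18* and *Hspb8*.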
